A study of Mus musculus with 26 samples.

Results

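Mouse proximal small intestinal epithelium in which deletion of Smad1, Smad4 and Smad5 had been induced 30 days earlier, per the labels, was compared with control epithelium by RNA sequencing. The tested group was 3 libraries labelled SMAD1/4/5 iTKO (inducible triple knockout), and it was set against 5 control libraries of the same table, so that 8 of the 26 libraries of the study were used. A further 2 libraries of that table, labelled SMAD1/5 iDKO (inducible double knockout), were fitted with them and used for 1 added comparison. These libraries were taken by their labels alone, and all genes of the table that reached a minimum level were tested. Those named below were chosen by a stated rule, apart from some list members and other genes picked with their values in view. The rule and the gene lists were themselves set with earlier results of these data known.

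Floxed alleles were recombined by Villin-CreERT2, a tamoxifen-activated Cre made in intestinal epithelial cells, so that the lamina propria kept its SMAD genes. The iTKO and iDKO mice carried Cre and received tamoxifen on 4 consecutive days, and all mice were killed 30 days after the first injection. Controls 3, 4 and 5 came from the SMAD1/4/5 line and received oil, and controls 1 and 2 came from the SMAD1/5 line and received tamoxifen. Per the labels' protocols, oil controls carried Cre and tamoxifen controls lacked it, and controls were littermates matched for sex. Active Cre and the deletion therefore go together in every comparison with controls, and their parts cannot be told apart. For the iTKO libraries, tamoxifen also goes with the deletion against the oil controls, and the line does against the tamoxifen controls. These parts cannot be told apart either. Ages are not given in the sources used here. Each library was made from polyadenylated RNA of a whole epithelial preparation. The labels do not say that replicates are separate mice, so p-values measure the spread between these libraries, which may in part be technical.

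BMP ligands are made mainly in the villus mesenchyme and act on the epithelium above it. A ligand brings together type I and type II receptors, which phosphorylate SMAD1 and SMAD5, and these enter the nucleus with SMAD4. TGF-beta and activin receptors instead phosphorylate SMAD2 and SMAD3, which also pair with SMAD4, so that the triple knockout lacks the shared partner of both branches. BMP signalling is high in the villus and low at the crypt base, and enterocytes change their gene programme as they climb from antimicrobial genes at the villus bottom to amino acid, carbohydrate and lipid uptake in the middle and purine metabolism at the tip.

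Values were deposited as FPKM, fragments scaled by the length of the transcript and by the size of the library. The spacing of low values gave depths of about 14.3 to 15.8 megafragments in the iTKO libraries and 13.1 to 16.5 over both groups. Correlations of log2 values across genes, which are not independent replicates, were 0.978 to 0.983 between iTKO libraries, 0.971 to 0.983 between controls and 0.948 to 0.966 between an iTKO and a control library. Xist and Y-linked transcripts marked 1 of 3 iTKO, 1 of 2 iDKO and 2 of 5 control libraries as male. Enterocyte markers fitted the labelled tissue, with summed levels of 36822 to 46147 FPKM over 12 genes in iTKO and 35421 to 41758 FPKM in control epithelium. By the fit described below, 5 of the 12 were lower and 1 higher in iTKO epithelium, where 8.95% and 9.13% of all genes were. Their median log2 change was -0.33, so similar sums do not show similar levels of each gene. Ileal Fabp6 stayed between 0 and 0.503 FPKM in the 8 libraries.

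Smad4 was measured at 35.3, 32.1 and 46.7 FPKM in iTKO epithelium, against 136, 163, 128, 148 and 160.04 FPKM in control epithelium. All 3 iTKO values were below the lowest control, the mean was 38.0 ± 7.64 FPKM in iTKO and 146.9 ± 15.1 FPKM in control epithelium (SD, n = 3 and 5), and the log2 change was -1.95 ± 0.12 (SE, adjusted p = 1.2e-05) in the limma fit. An exact two-sided permutation test over libraries gave p = 0.0179, the smallest value that 3 against 5 libraries allow. Smad1 was at 26.6, 32.5 and 40.5 FPKM in iTKO epithelium, against 27.8, 35.2, 29.9, 34.6 and 38.4 FPKM in control epithelium, and the groups overlapped. Smad5 was at 31.7, 30.5 and 32.1 FPKM in iTKO epithelium, against 15.7, 16.9, 16.0, 16.5 and 14.4 FPKM in control epithelium, higher in every iTKO library than in any control, with a log2 change of 0.96 ± 0.083 (SE, adjusted p = 6.5e-05). FPKM over the whole gene does not show whether floxed exons of Smad1 and Smad5 are missing, so these values do not check their deletion. In bulk RNA, fewer cells of a type and less RNA per cell cannot be told apart, which holds for every value below.

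A gene was tested where 2 or more of the 10 libraries reached 1 FPKM. Of the 11939 such genes, 1090 were higher in iTKO than in control epithelium (9.13%) and 1069 were lower (8.95%), at an adjusted p under 0.05 in limma on log2(FPKM + 0.5). Each count of list members below is to be read beside these shares. Changes over 2-fold numbered 215 among the rises and 365 among the falls. All 3 iTKO libraries lay above all 5 controls in 1589 genes (13.3%) and below them in 1471 (12.3%). The median log2 change over all 11939 genes was 0.0083. Fold changes on this scale understate the change of genes near 0 FPKM. Against the 3 oil controls of the SMAD1/4/5 line alone, 875 genes were higher and 835 lower. Against the 2 tamoxifen controls of the SMAD1/5 line alone, 583 were higher and 599 lower. All 2159 called genes kept their sign against each set, and 1579 of them were called against the first set and 1087 against the second. The replicate that weighed most was iTKO 3, without which 593 genes were higher and 653 lower.

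BMP response genes fell together. All 6 tested members of the list were lower in iTKO epithelium, where 8.95% of all genes were lower, all 6 lay below every control, and their median log2 change was -2.92 against 0.0083 over all genes. The inhibitors of DNA binding Id1, Id2 and Id3 are helix-loop-helix proteins that block partner transcription factors, and they are direct targets of SMAD1 and SMAD5 in many tissues. Id1 was at 5.02, 6.79 and 7.61 FPKM in iTKO epithelium, against 51.2, 56.7, 51.8, 50.7 and 55.2 FPKM in control epithelium. Id2 was at 1.55, 2.26 and 1.88 FPKM in iTKO epithelium, against 16.2, 21.1, 22.6, 18.3 and 18.0 FPKM in control epithelium. Id3 was at 5.50, 10.5 and 17.1 FPKM in iTKO epithelium, against 82.3, 84.7, 63.8, 81.1 and 72.9 FPKM in control epithelium. None of the 3 genes had an iTKO library within the control range, and their log2 changes were -2.96, -3.04 and -2.88 (adjusted p = 6.1e-05, 1.4e-06 and 2.2e-04). Id3 varied most among iTKO libraries, with iTKO 3 the highest.

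Smad6, an inhibitory SMAD that BMP signalling induces and that blocks BMP receptors, showed the deepest fall of the list. It was at 0.804, 1.32 and 0.360 FPKM in iTKO epithelium, against 13.2, 14.9, 25.6, 21.0 and 20.6 FPKM in control epithelium. Even the highest iTKO library lay well under the lowest control, and the log2 change was -3.91 ± 0.27 (SE, adjusted p = 1.4e-05). Smad7, which inhibits both the BMP and the TGF-beta branch, was at 16.8, 16.2 and 18.8 FPKM in iTKO epithelium, against 35.9, 40.7, 41.6, 30.0 and 37.3 FPKM in control epithelium. Its fall was smaller, at -1.07 ± 0.12 (SE, adjusted p = 2.5e-04). Bambi, a receptor-like protein without a kinase that dampens BMP and TGF-beta signals, was at 0.635, 0.496 and 0.297 FPKM in iTKO epithelium, against 0.998, 1.02, 1.84, 0.935 and 1.28 FPKM in control epithelium. Its change of -0.80 ± 0.23 (SE, adjusted p = 0.0328) did not pass against the SMAD1/5-line controls alone, nor without iTKO 2, iTKO 3, control 3 or control 5. Of 10 listed members in the table the other 4 did not reach the minimum FPKM.

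Promoters of Id2 and Smad6 are shown because these genes had the smallest adjusted p of the BMP list and hold matches to SMAD motifs, which are in capitals. Each run is 260 bases, 250 before and 10 after the RefSeq start on build GRCm38.p6, given 5′ to 3′ on the strand of the gene. Id2 lies at chr12:25096083-25096342 on the minus strand and holds GGCGCC, the core of a BMP response element, 231 bases before the start. Smad6 lies at chr9:64022050-64022309 on the minus strand and holds GTCTAGAC, a palindromic SMAD element, 4 bases before the start.
Id2: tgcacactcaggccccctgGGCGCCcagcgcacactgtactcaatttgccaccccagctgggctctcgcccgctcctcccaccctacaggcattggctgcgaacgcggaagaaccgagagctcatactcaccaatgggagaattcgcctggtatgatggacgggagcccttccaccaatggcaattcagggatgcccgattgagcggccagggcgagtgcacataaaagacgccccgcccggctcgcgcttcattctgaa
Smad6: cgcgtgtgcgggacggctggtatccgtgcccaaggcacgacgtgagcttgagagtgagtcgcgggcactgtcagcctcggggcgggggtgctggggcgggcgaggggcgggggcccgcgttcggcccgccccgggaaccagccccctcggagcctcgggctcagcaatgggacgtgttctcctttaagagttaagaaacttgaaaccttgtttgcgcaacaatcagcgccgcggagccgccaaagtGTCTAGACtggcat
Over windows of 300 bases and both strands, GGCGCC is in 11.8% of 27025 RefSeq promoters and in 21.1% of the 9323 promoters of tested genes. GTCTAGAC is in 0.222% of all and 0.279% of those of tested genes. Among the tested BMP response genes 3 had a promoter entry, and 1 of the 3 held each motif. Another SMAD motif searched, CAGAC, was in the promoter of Id3 and not in those of Id2 or Smad6. It is in 47.8% of the promoters of tested genes. A match is a description of these letters and not a binding site.

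**Figure D1:**
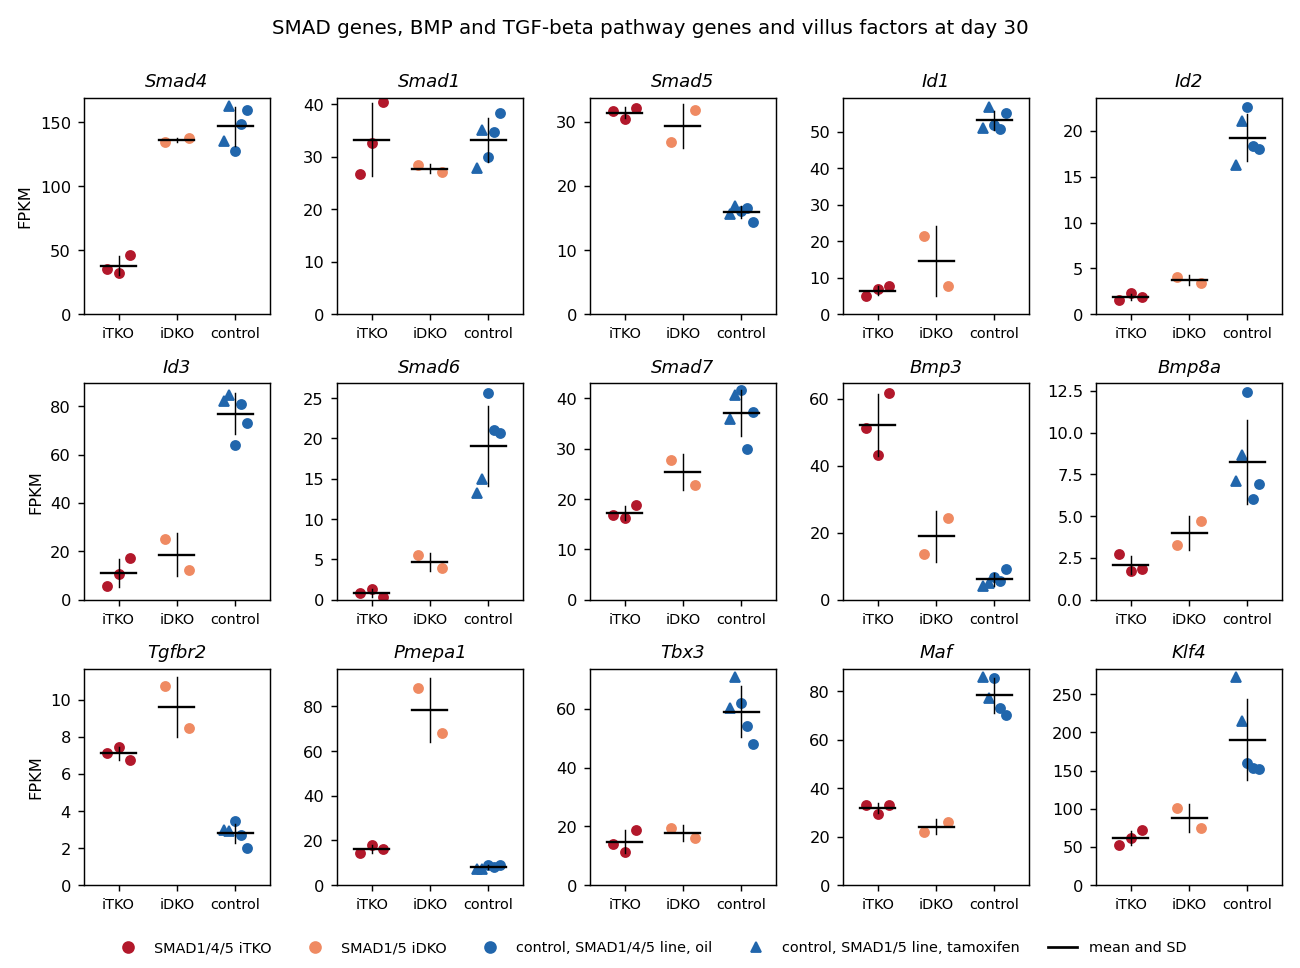
FPKM (linear axes from 0) of SMAD genes, BMP and TGF-beta pathway genes and villus transcription factors in 3 iTKO, 2 iDKO and 5 control libraries, with bars at the mean and SD. Smad4, Id1, Id2, Id3, Smad6 and Tbx3 are lower in every iTKO library than in any control, and Bmp3, Tgfbr2 and Smad5 are higher.

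Among ligands, receptors and extracellular regulators of the BMP branch, some changed, in both directions. Of 15 tested members, 4 rose and 3 fell, where 9.13% of all genes rose and 8.95% fell. The other 8 did not pass, and the median was -0.01 against 0.0083 over all genes. Bmp3, a ligand of the family that opposes other BMPs in bone, was at 51.4, 43.3 and 61.8 FPKM in iTKO epithelium, against 3.95, 5.07, 6.63, 5.66 and 9.06 FPKM in control epithelium. The lowest iTKO library was several times above the highest control, and the log2 change was 3.04 ± 0.25 (SE, adjusted p = 5.3e-05). Bmp8a was at 2.72, 1.73 and 1.83 FPKM in iTKO epithelium, against 7.08, 8.68, 12.4, 6.06 and 6.94 FPKM in control epithelium, and its neighbour and close paralog Bmp8b was at 0.558, 0.303 and 0.235 FPKM in iTKO epithelium, against 4.04, 2.65, 3.91, 3.53 and 2.18 FPKM in control epithelium. Both ligands fell without overlap, with log2 changes of -1.73 and -2.11 (adjusted p = 6.7e-04 and 2.9e-04), though reads shared between the 2 paralogs may have been split between them. Bmp7 fell as well (-0.74, adjusted p = 0.0478). The type I receptor Bmpr1a rose slightly, at 66.0, 63.2 and 64.6 FPKM in iTKO and 55.9, 49.3, 51.1, 42.1 and 50.0 FPKM in control epithelium (log2 change 0.38, adjusted p = 0.0177). The type II receptor Bmpr2 (0.55, adjusted p = 0.00772) and Twsg1, an extracellular BMP-binding protein (0.48, adjusted p = 0.00611), rose by similar amounts. The Bmpr1a call ended without iTKO 1 or iTKO 3. Bmp2 was at 6.45, 8.16 and 11.1 FPKM in iTKO and 10.2, 6.22, 5.45, 5.90 and 4.51 FPKM in control epithelium, and these ranges overlapped.

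Of 10 tested genes known to respond to TGF-beta and activin 5 rose and 1 fell, and the median was 0.52. Bhlhe40, a helix-loop-helix repressor, was at 74.6, 88.4 and 77.1 FPKM in iTKO epithelium, against 33.9, 32.6, 42.1, 37.0 and 43.3 FPKM in control epithelium, a log2 change of 1.08 ± 0.11 (SE, adjusted p = 1.6e-04). Pmepa1, which limits TGF-beta receptor signalling, was at 14.3, 17.8 and 16.1 FPKM in iTKO epithelium, against 7.21, 7.06, 8.84, 8.27 and 8.96 FPKM in control epithelium, a change of 0.95 ± 0.12 (SE, adjusted p = 5.9e-04). The corepressors Tgif1 and Skil rose by 0.75 and 0.61 (adjusted p = 6.2e-04 and 0.00585). Cdkn2b, a cell cycle inhibitor, rose by 0.76 (adjusted p = 0.0333) with overlapping groups, and this call was lost without iTKO 2 or 3 or control 2, 3 or 5. Cdkn1a, the cell cycle inhibitor p21, went the other way at 68.2, 68.6 and 58.7 FPKM in iTKO epithelium, against 172, 154, 132, 128 and 154 FPKM in control epithelium, a change of -1.17 ± 0.13 (SE, adjusted p = 2.1e-04). Tgfbr2, the type II TGF-beta receptor, was at 7.14, 7.44 and 6.76 FPKM in iTKO epithelium, against 2.95, 2.90, 3.44, 2.72 and 2.02 FPKM in control epithelium. Its rise of 1.22 ± 0.15 (SE, adjusted p = 4.7e-04) was the only one among 5 tested TGF-beta and activin ligands and receptors, and Acvr1c, a type I receptor for activins and nodal, fell (-0.88, adjusted p = 0.0111), a call lost without iTKO 3.

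Of 24 tested transcription factors of villus enterocytes 4 rose, 4 fell and 16 did not pass the threshold, and the median was 0.09. Tbx3, a T-box repressor, was at 14.1, 11.2 and 18.9 FPKM in iTKO epithelium, against 60.4, 70.7, 62.2, 54.0 and 47.9 FPKM in control epithelium. Maf, a leucine zipper factor of mid-villus enterocytes, was at 33.2, 29.4 and 32.9 FPKM in iTKO epithelium, against 86.1, 77.4, 85.4, 72.9 and 70.2 FPKM in control epithelium. Klf4, a zinc finger factor of differentiated epithelium, was at 52.9, 61.3 and 71.6 FPKM in iTKO epithelium, against 273, 215, 160.5, 153 and 152 FPKM in control epithelium. Each of the 3 genes lay below every control in every iTKO library, with log2 changes of -1.99, -1.29 and -1.58 (adjusted p = 6.1e-05, 2.7e-05 and 5.7e-04). Prdm1, known as a repressor in neonatal mouse enterocytes, fell to 1.77, 2.31 and 2.72 FPKM, against 6.93, 6.10, 3.93, 3.96 and 3.98 FPKM in control epithelium (-0.96, adjusted p = 0.00875). Onecut2 was higher at 14.4, 9.04 and 11.8 FPKM in iTKO epithelium, against 5.20, 6.75, 6.87, 6.38 and 7.35 FPKM in control epithelium (0.79, adjusted p = 0.0048). Elf3, Creb3l3 and Isx rose by 0.75, 0.49 and 0.43 (adjusted p = 0.0141, 0.031 and 0.0473). The Elf3 call ended without iTKO 3, that of Creb3l3 without iTKO 1 or 3 or control 2, 3 or 4, and both against the SMAD1/4/5-line controls alone (0.67, adjusted p = 0.0514 and 0.50, adjusted p = 0.0668). Hnf4g was at 197, 129 and 154 FPKM in iTKO and 162, 188, 190.3, 164 and 188 FPKM in control epithelium, and neither it nor Hnf4a, Cdx1, Cdx2, Gata4, Gata5 or Gata6 passed the threshold.

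**Figure D2:**
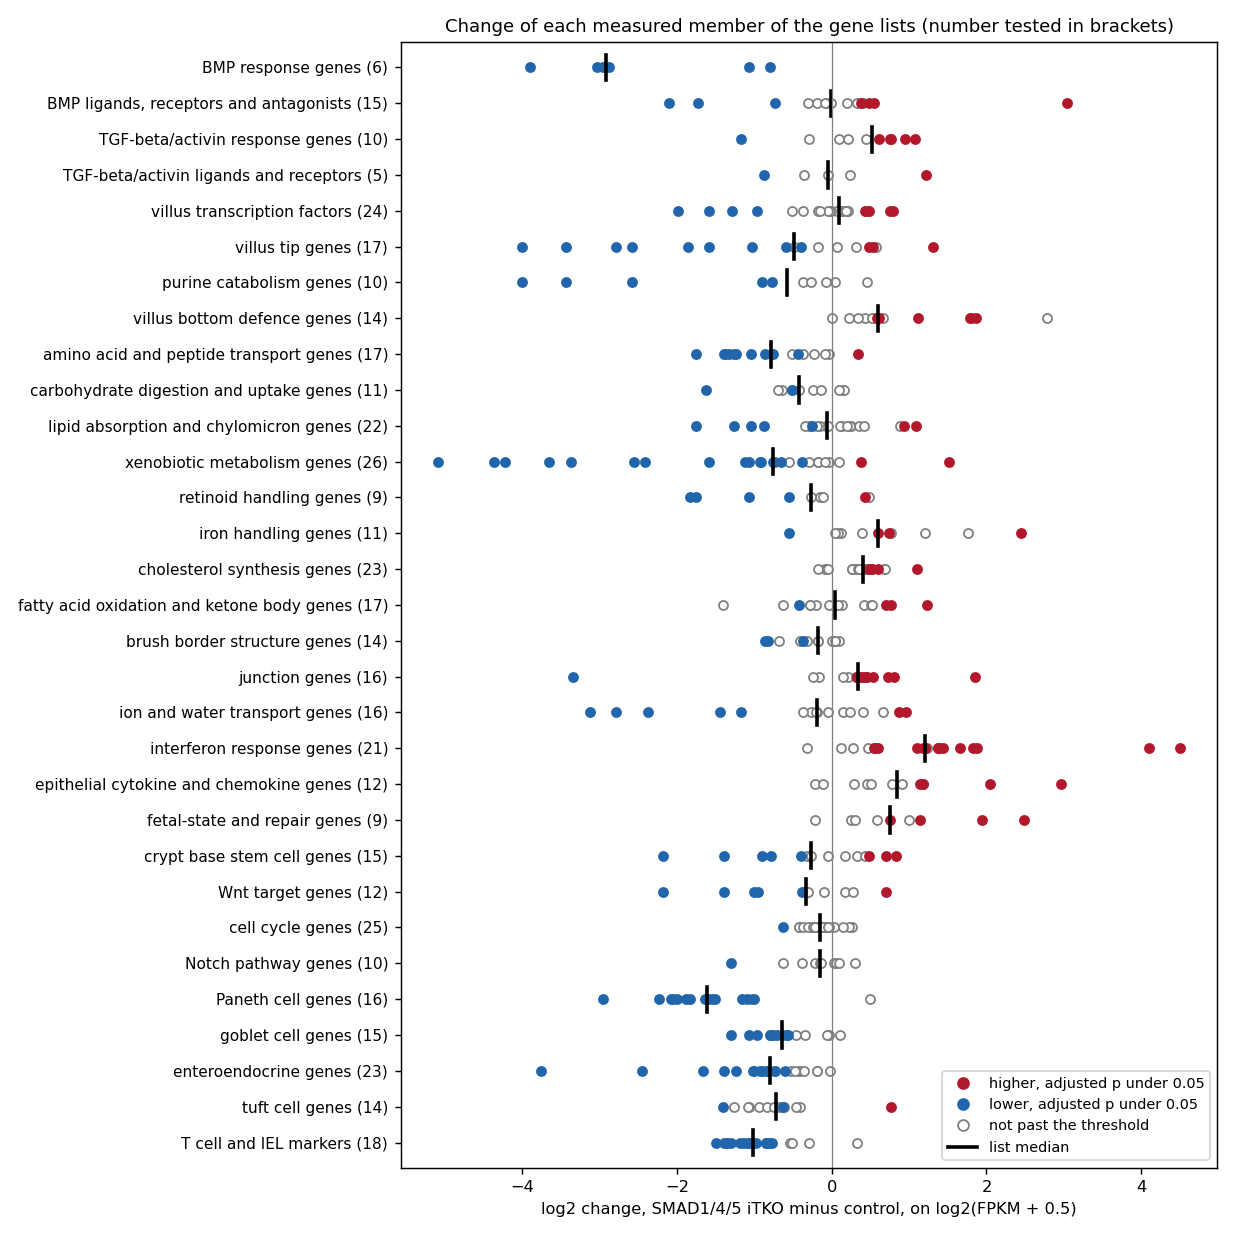
Log2 change of iTKO minus control for each tested member of 31 gene lists (x axis), with the list median as a black bar. Red and blue points passed an adjusted p of 0.05, and all 6 BMP response genes, 14 of 16 Paneth cell genes and 14 of 18 T cell markers are blue while 16 of 21 interferon response genes are red.

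Of 17 tested villus tip genes 9 fell and 3 rose, with a median of -0.49. Ada, adenosine deaminase, was at 55.2, 30.1 and 39.6 FPKM in iTKO epithelium, against 952, 663, 589.8, 571 and 560.4 FPKM in control epithelium. Nt5e, the surface enzyme CD73 that makes adenosine from AMP, was at 2.53, 1.96 and 1.24 FPKM in iTKO epithelium, against 26.3, 24.8, 50.6, 13.8 and 21.3 FPKM in control epithelium. Slc28a2, a sodium-coupled purine nucleoside transporter, was at 37.2, 20.1 and 21.9 FPKM in iTKO epithelium, against 204, 202, 186, 86.5 and 133 FPKM in control epithelium. The 3 genes showed no overlap with controls and changes of -3.999, -3.44 and -2.58 (adjusted p = 2.6e-06, 1.3e-04 and 3.5e-04). Slc28a2 has close paralogs, so its level is less certain. Enpp3, a surface nucleotidase, was at 189, 69.2 and 93.5 FPKM in iTKO epithelium, against 965, 709.6, 946, 485 and 735 FPKM in control epithelium, with iTKO 1 at least 2 times each other iTKO library. Its log2 change was -2.80 ± 0.31 (SE, adjusted p = 2.7e-04).

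Not every tip gene followed. Slc28a3, a nucleoside transporter of broader specificity, was at 38.3, 44.1 and 54.6 FPKM in iTKO epithelium, against 14.2, 17.4, 15.6, 21.1 and 22.7 FPKM in control epithelium, a rise of 1.31 ± 0.16 (SE, adjusted p = 5.0e-04). Cdh1, E-cadherin, rose as well (0.53, adjusted p = 0.00138). Alpi, intestinal alkaline phosphatase, was at 274, 204 and 230.2 FPKM in iTKO epithelium, against 476, 441, 591, 427 and 486 FPKM in control epithelium, a change of -1.03 ± 0.12 (SE, adjusted p = 4.4e-04). Pmp22 and Krt20, a membrane protein and a keratin, fell (-1.86 and -0.39, adjusted p = 0.00354 and 0.0499). Fos, an immediate early gene of tip cells, was at 88.4, 81.9 and 86.3 FPKM in iTKO and 98.6, 112, 184, 97.2 and 127 FPKM in control epithelium and did not pass (-0.49, adjusted p = 0.0869). Egfr, the epidermal growth factor receptor, overlapped between the groups at 12.6, 11.7 and 11.2 FPKM in iTKO and 12.1, 14.8, 15.2, 13.1 and 12.4 FPKM in control epithelium. In the purine catabolism list 5 of 10 tested genes fell and none rose. Besides the 3 genes above these were the equilibrative transporter Slc29a1 (-0.91, adjusted p = 0.00363) and Entpd5, a nucleoside diphosphatase (-0.78, adjusted p = 0.00888). Xdh, xanthine dehydrogenase, overlapped at 807, 564 and 792 FPKM in iTKO and 771, 744, 742, 707 and 774 FPKM in control epithelium.

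Of 17 tested amino acid and peptide transport genes 11 fell and 1 rose, with a median of -0.79. Slc6a19, the main neutral amino acid transporter of the brush border, was at 222, 144 and 150.5 FPKM in iTKO epithelium, against 611, 614, 651, 443 and 562 FPKM in control epithelium. Slc15a1, the peptide transporter PEPT1, was at 120.3, 108 and 129 FPKM in iTKO epithelium, against 307, 335, 371, 241 and 326 FPKM in control epithelium. Slc43a2, a basolateral neutral amino acid transporter, was at 233, 220.1 and 197 FPKM in iTKO epithelium, against 495, 654, 664, 478 and 459 FPKM in control epithelium. All 3 lay at less than the lowest control in each iTKO library, with changes of -1.75, -1.39 and -1.33 (adjusted p = 8.1e-04, 0.001 and 0.00224). The aromatic amino acid transporter Slc16a10 (-1.38, adjusted p = 0.00103) and the acidic amino acid transporter Slc1a1 (-1.26, adjusted p = 0.00179) fell too. Slc38a2, a sodium-coupled transporter induced when amino acids are scarce, was the 1 member that rose (0.33, adjusted p = 0.0423). Slc7a9, the cystine transporter subunit, was at 175, 191 and 209.7 FPKM in iTKO and 190.1, 226, 211, 171 and 224 FPKM in control epithelium, and these overlapped.

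Of 11 tested carbohydrate digestion and uptake genes, 2 fell and none rose, with a median of -0.42. Lct, lactase, was at 428, 226 and 230.2 FPKM in iTKO epithelium, against 614, 897, 1257, 671 and 1051 FPKM in control epithelium. Its change was -1.62 ± 0.35 (SE, adjusted p = 0.0102), a call that was lost against the SMAD1/5-line controls alone and without iTKO 3. Slc5a1, the apical glucose transporter SGLT1, was at 622, 580.2 and 613 FPKM in iTKO epithelium, against 1135, 862, 817, 662 and 913 FPKM in control epithelium. The fall of -0.52 ± 0.15 (SE, adjusted p = 0.0384) was near the threshold and ended in each fit that left out an iTKO library, and in those without control 2, 3 or 5. Slc2a2 and Slc2a5, the glucose and fructose transporters GLUT2 and GLUT5, were at 187, 135 and 109.9 FPKM and 192, 147 and 147 FPKM in iTKO epithelium, against 161 to 289.9 FPKM and 184 to 271 FPKM in control epithelium, and neither passed.

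Of 22 tested lipid absorption genes, 5 fell and 2 rose, where 8.95% of all genes fell and 9.13% rose, so that the rises were no more frequent than over all genes. The median was -0.06. Apoc3, an apolipoprotein that slows lipoprotein clearance, was at 615, 286 and 312 FPKM in iTKO epithelium, against 1283, 1497, 1363, 1019 and 1293 FPKM in control epithelium. It changed by -1.75 ± 0.23 (SE, adjusted p = 6.5e-04), with iTKO 1 about 2 times the other iTKO libraries. Cd36, a fatty acid receptor, was at 41.2, 28.6 and 46.1 FPKM in iTKO epithelium, against 86.6, 81.0, 96.5, 71.7 and 130.2 FPKM in control epithelium (-1.26, adjusted p = 0.00338). The 2 intestinal fatty acid-binding proteins moved apart, as Fabp2 was at 2066, 1940.4 and 1767 FPKM in iTKO epithelium, against 4015, 4295, 4622, 3896 and 3151 FPKM in control epithelium. Fabp1 was at 7729, 5706 and 6342 FPKM in iTKO epithelium, against 4199.9, 3189, 2906, 3553 and 3403 FPKM in control epithelium. Their changes were -1.05 ± 0.13 (SE, adjusted p = 5.9e-04) and 0.93 ± 0.17 (SE, adjusted p = 0.00375). Plin2, a lipid droplet coat protein, was at 241, 231 and 223 FPKM in iTKO epithelium, against 115, 98.1, 104, 114 and 113 FPKM in control epithelium, a rise of 1.09 ± 0.11 (SE, adjusted p = 1.3e-04). Slc27a4, a fatty acid transport protein, fell (-0.88, adjusted p = 0.00365), and Plin3, another droplet coat protein, fell slightly (-0.26, adjusted p = 0.0422). Apob and Mttp, which build the chylomicron, did not pass, with Apob at 1623, 1019 and 1335 FPKM in iTKO and 903, 1325, 1251, 727 and 1018 FPKM in control epithelium.

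Of 26 tested xenobiotic metabolism genes 15 fell and 2 rose, with a median of -0.76. Cyp2b10, the cytochrome P450 best known as a target of the nuclear receptor CAR, was at 22.2, 8.23 and 7.73 FPKM in iTKO epithelium, against 250.5, 259, 303, 205 and 207 FPKM in control epithelium. Cyp3a11, the main steroid-induced P450 of mouse liver and gut, was at 47.3, 15.5 and 5.54 FPKM in iTKO epithelium, against 396, 386, 376, 261 and 193 FPKM in control epithelium. Cyp2c29 was at 0.0330, 0.0305 and 0.0592 FPKM in iTKO epithelium, against 60.6, 29.0, 11.3, 17.0 and 5.23 FPKM in control epithelium. Their log2 changes were -4.37 ± 0.29 (SE, adjusted p = 1.3e-05), -4.22 ± 0.58 (SE, adjusted p = 9.2e-04) and -5.09 ± 0.62 (SE, adjusted p = 4.5e-04), and no group overlapped. Cyp2c55 and Cyp2c66 changed by -3.65 and -2.56 (adjusted p = 9.4e-05 and 5.5e-04). Cyp2c genes are near-identical copies, so reads may have been split between them. Gstm1, a glutathione transferase, was at 26.0, 25.4 and 19.2 FPKM in iTKO epithelium, against 172, 182, 144, 130.1 and 56.8 FPKM in control epithelium, with control 5 the lowest control and still above each iTKO library. Cyp1a1, the target of the aryl hydrocarbon receptor, fell (-3.38, adjusted p = 0.0115). Ces2a, a carboxylesterase with several copies, was the larger of the 2 rises (1.52, adjusted p = 0.00201). The nuclear receptors Nr1i2 and Nr1i3 did not pass the threshold (0.19 and -0.15, adjusted p = 0.446 and 0.671).

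Retinoid genes fell in 4 of 9 cases and rose in 1, with a median of -0.27. Lrat, which stores retinol as esters, was at 4.22, 1.64 and 1.88 FPKM in iTKO epithelium, against 11.8, 8.08, 10.2, 6.55 and 10.7 FPKM in control epithelium, a change of -1.76 ± 0.26 (SE, adjusted p = 0.00138). Aldh1a1, which makes retinoic acid, fell (-1.84, adjusted p = 3.0e-04). Rdh7, a retinol dehydrogenase, and Dhrs3, a retinal reductase, fell with overlapping groups (-1.07 and -0.56, adjusted p = 0.029 and 0.0406). Both calls ended without iTKO 2 or 3 or control 3 or 5, that of Rdh7 also without control 2 or 4, and that of Dhrs3 also without control 1. Rbp2, the retinol carrier of enterocytes, was at 6830.4, 5926 and 5434 FPKM in iTKO and 5854, 3678, 3886, 4473 and 4031 FPKM in control epithelium and did not pass.

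Of 11 tested iron handling genes 3 rose and 1 fell, with a median of 0.60. Slc40a1, ferroportin, the basolateral iron exporter, was at 38.9, 29.8 and 69.7 FPKM in iTKO epithelium, against 7.50, 6.46, 5.48, 7.99 and 11.2 FPKM in control epithelium. The lowest iTKO library was more than 2 times the highest control, and the change was 2.45 ± 0.27 (SE, adjusted p = 2.4e-04). Fth1, the ferritin heavy chain, was at 3827, 3321 and 3577 FPKM in iTKO epithelium, against 2067, 1951, 1834, 2242 and 2651 FPKM in control epithelium (0.74, adjusted p = 0.00364). Slc11a2, the apical iron importer DMT1, rose by 0.60 (adjusted p = 0.0259), a call lost without iTKO 2 or 3 or control 5. Slc39a4, a zinc importer, fell (-0.55, adjusted p = 0.00842). Heph, the ferroxidase that works with ferroportin, was at 151, 125 and 130.01 FPKM in iTKO and 123, 140.4, 136, 100.1 and 126 FPKM in control epithelium, and the groups overlapped.

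Among calcium and phosphate genes Pdzk1, a scaffold of brush border transporters, fell (-1.09, adjusted p = 0.00244) and Slc20a1, a phosphate transporter, rose (1.08, adjusted p = 0.0237), out of 6 tested, and the second call was lost without iTKO 1 or 2. Among bile acid and ileal genes Nr0b2, the repressor SHP, was at 10.4, 11.2 and 5.65 FPKM in iTKO epithelium, against 2.61, 3.37, 2.26, 3.35 and 4.66 FPKM in control epithelium, a rise of 1.33 ± 0.24 (SE, adjusted p = 0.004). Slc51a, a basolateral bile acid exporter, fell slightly (-0.44, adjusted p = 0.018), a call lost without iTKO 1 or 3, and 6 genes were tested. Of 23 cholesterol synthesis genes 4 rose, with a median of 0.40 and per-library medians of 0.39, 0.72 and 0.07 in iTKO 1, 2 and 3. Srebf2, the transcription factor of this pathway, was at 81.1, 94.1 and 74.9 FPKM in iTKO epithelium, against 52.5, 52.3, 56.9, 61.1 and 50.3 FPKM in control epithelium (0.60, adjusted p = 0.00209). Cyp51, lanosterol demethylase, rose by 1.10 (adjusted p = 0.0174), and Tm7sf2 and Pmvk, also enzymes of the pathway, rose by 0.48 and 0.53 (adjusted p = 0.0122 and 0.0366). The calls of Cyp51, Tm7sf2 and Pmvk ended without iTKO 2, that of Cyp51 also without iTKO 1, and that of Pmvk also without iTKO 3 or control 2, 3 or 5. Hmgcs1 and Sqle did not pass.

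Fatty acid oxidation genes numbered 3 rises and 1 fall among 17 tested, where 9.13% of all genes rose and 8.95% fell, with a median of 0.04. Acadl, the long-chain acyl-CoA dehydrogenase, was at 331, 319 and 413 FPKM in iTKO epithelium, against 166, 114, 131, 167 and 180.1 FPKM in control epithelium, a change of 1.23 ± 0.15 (SE, adjusted p = 5.2e-04). Cpt1a, which admits fatty acids to mitochondria, was at 214, 198 and 182 FPKM in iTKO epithelium, against 116, 113, 123, 111 and 119 FPKM in control epithelium, a change of 0.76 ± 0.074 (SE, adjusted p = 1.3e-04). The carnitine carrier Slc25a20 rose (0.70, adjusted p = 0.00835), whereas Acadm, the medium-chain dehydrogenase, fell (-0.42, adjusted p = 0.00809). Brush border structure genes fell in 3 of 14 cases, and none rose. Ezr, ezrin, which ties actin to the microvillus membrane, was at 405, 375 and 339 FPKM in iTKO epithelium, against 589.9, 770.5, 807, 579 and 672 FPKM in control epithelium (-0.86, adjusted p = 0.00161). Espn, an actin bundler, fell (-0.82, adjusted p = 0.00149). Vil1, villin, whose promoter drives the Cre, was at 2304, 1988 and 2131 FPKM in iTKO epithelium, against 2644, 2975, 3037, 2540.4 and 2681 FPKM in control epithelium, and its small change (-0.37, adjusted p = 0.035) passed in 13 of 23 alternative fits and in none that left out an iTKO library.

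**Figure D3:**
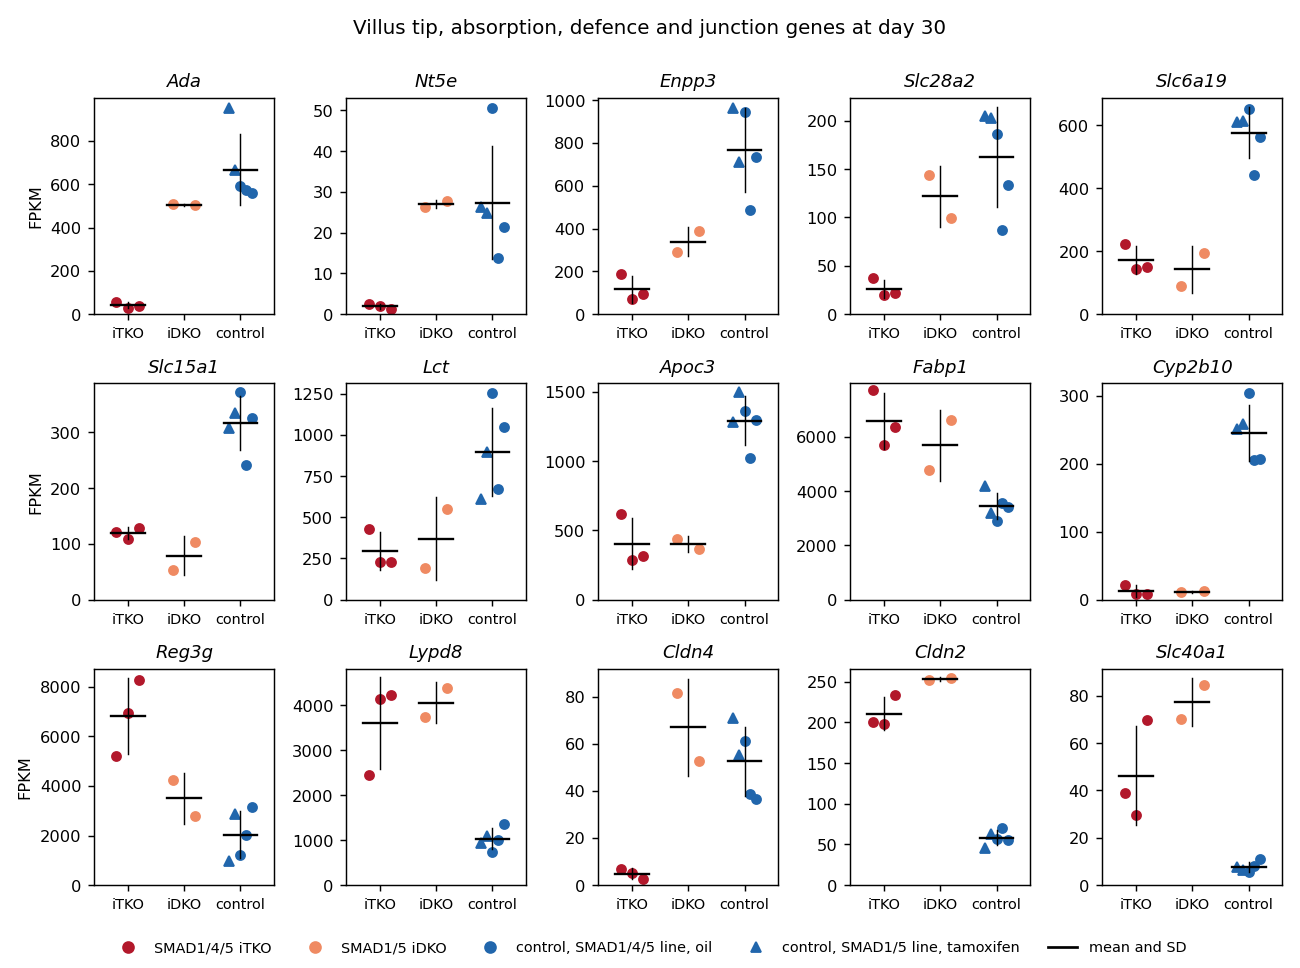
FPKM (linear axes from 0) of villus tip, absorption, defence and junction genes in 3 iTKO, 2 iDKO and 5 control libraries, with bars at the mean and SD. Ada, Nt5e, Slc28a2 and Cldn4 are low in the iTKO libraries only, whereas Slc15a1, Cyp2b10 and Apoc3 are low in both knockouts.

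Of 14 tested antimicrobial and defence genes of the villus bottom 6 rose and none fell, with a median of 0.59. Reg3g, a lectin that kills Gram-positive bacteria, was at 5213, 6947 and 8295 FPKM in iTKO epithelium, against 974, 2851, 1211, 2024 and 3138 FPKM in control epithelium. Reg3b, a lectin active on Gram-negative bacteria, was at 25985, 31397 and 44388 FPKM in iTKO epithelium, against 4302, 11729, 5335, 12759 and 22914 FPKM in control epithelium. Both were highest in iTKO 3 and did not overlap with controls, and control 5 was the highest control for each. Their changes were 1.86 ± 0.37 (SE, adjusted p = 0.00678) and 1.80 ± 0.48 (SE, adjusted p = 0.0256), and the second was lost without iTKO 2, iTKO 3 or control 3, without the filter on low values, and against the SMAD1/4/5-line controls alone (1.51, adjusted p = 0.0891). After quantile normalization the log2 change of Reg3b was 0.80 (adjusted p = 0.326). Reg3 genes are close copies, which may share reads. Lypd8, a protein that keeps flagellated bacteria from the colonic epithelium in mice, was at 2440.0, 4148 and 4243 FPKM in iTKO epithelium, against 929, 1104, 745, 1009 and 1369.9 FPKM in control epithelium, a rise of 1.79 ± 0.22 (SE, adjusted p = 5.1e-04). Dmbt1, a mucosal scavenger protein, was at 1136, 1706 and 2015 FPKM in iTKO epithelium, against 559.97, 886, 526, 863 and 905 FPKM in control epithelium (1.11, adjusted p = 0.00944). Nlrp6, an inflammasome sensor, and Il18, the cytokine that inflammasomes release, rose by 0.61 and 0.58 (adjusted p = 0.0107 and 0.0288). Calls of Dmbt1, Nlrp6 and Il18 ended without iTKO 3, that of Il18 also without iTKO 1 or 2 or control 3. The per-library medians of the list were 0.57, 1.06 and 1.04 in iTKO 1, 2 and 3 and -0.14, 0.13, -0.45, 0.02 and 0.18 in controls 1 to 5, so iTKO 1 stood lower than the other iTKO libraries.

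Interferon response genes rose in 16 of 21 cases, where 9.13% of all genes rose, and none fell. The median was 1.21. Ifi44, an interferon-induced protein, was at 50.2, 38.3 and 58.8 FPKM in iTKO epithelium, against 1.77, 1.58, 1.63, 2.01 and 1.32 FPKM in control epithelium. With no overlap, its log2 change was 4.51 ± 0.15 (SE, adjusted p = 1.5e-07), the smallest p of the list. Ifit1 and Ifit2, antiviral proteins that bind RNA, were uneven among iTKO libraries. Ifit1 was at 62.6, 116 and 69.6 FPKM in iTKO epithelium, against 17.1, 30.5, 20.2, 19.8 and 21.2 FPKM in control epithelium. Ifit2 was at 9.03, 72.7 and 39.7 FPKM in iTKO epithelium, against 1.52, 2.36, 0.566, 0.980 and 1.42 FPKM in control epithelium. Their changes were 1.88 ± 0.31 (SE, adjusted p = 0.00239) and 4.10 ± 0.68 (SE, adjusted p = 0.00244), and iTKO 2 was the highest iTKO library for both. Oasl2 was at 91.4, 138 and 119 FPKM in iTKO epithelium, against 38.0, 40.4, 44.3, 50.0 and 47.6 FPKM in control epithelium, a rise of 1.38 ± 0.27 (SE, adjusted p = 0.00569). Stat2, which carries the type I interferon signal, rose by 0.59 (adjusted p = 0.00599). Isg15, a ubiquitin-like protein, was at 50.1, 126 and 84.4 FPKM in iTKO epithelium, against 42.3, 47.1, 28.3, 32.0 and 26.3 FPKM in control epithelium, above every control in each iTKO library, but did not pass the test (1.23, adjusted p = 0.107). Irf1, Gbp2 and Mx1 did not pass either. Per-library medians of the list were 0.93, 1.35 and 1.20 in iTKO 1, 2 and 3, against 1.60 and 0.33 in iDKO 1 and 2 and 0.16, 0.14, -0.13, 0.12 and -0.08 in controls 1 to 5.

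The promoters of Ifit1 and Isg15 are shown because the core of the interferon-stimulated response element was found in both, in capitals. The search took GAAA, any 2 bases and GAAA again, on both strands. Ifit1 lies at chr19:34640639-34640898 on the plus strand with matches 104 and 85 bases before the start, read here as the reverse complement. Isg15 lies at chr4:156200809-156201068 on the minus strand with 3 overlapping matches from 78 bases before the start.
Ifit1: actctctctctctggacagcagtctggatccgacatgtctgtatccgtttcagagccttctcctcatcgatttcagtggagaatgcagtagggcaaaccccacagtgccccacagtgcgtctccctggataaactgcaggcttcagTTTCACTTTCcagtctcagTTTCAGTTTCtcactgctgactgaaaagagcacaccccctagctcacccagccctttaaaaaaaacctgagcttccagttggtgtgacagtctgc
Isg15: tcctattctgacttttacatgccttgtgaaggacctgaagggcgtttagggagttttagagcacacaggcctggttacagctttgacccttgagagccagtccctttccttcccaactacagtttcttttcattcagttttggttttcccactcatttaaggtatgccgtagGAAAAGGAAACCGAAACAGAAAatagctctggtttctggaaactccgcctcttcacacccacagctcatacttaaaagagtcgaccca
The motif was in 10 of 15 interferon response genes with a RefSeq promoter entry (66.7%), and in 3.52% of 27025 promoters of build GRCm38.p6 and 3.1% of the 9323 promoters of tested genes. Those without a match were Ifi44, Ifit2, Oasl2, Irf7 and Irf1, so that Ifi44, Ifit2 and Oasl2 rose without it in the searched window. Isg15, shown here, holds it and did not pass the test. No factor binding was measured, and the list was assembled from known interferon targets.

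Epithelial cytokine and chemokine genes rose in 4 of 12 cases, with a median of 0.84. Ccl20, the chemokine that draws CCR6-bearing lymphocytes, was at 14.2, 23.2 and 35.7 FPKM in iTKO epithelium, against 0.667, 1.99, 1.29, 7.50 and 5.23 FPKM in control epithelium. Its change was 2.96 ± 0.57 (SE, adjusted p = 0.00519), with no overlap and iTKO 3 the highest. Lcn2, an iron-sequestering defence protein, was at 1.74, 4.40 and 3.59 FPKM in iTKO epithelium, against 0.391, 0.0824, 0.218, 0.273 and 1.11 FPKM in control epithelium (2.05, adjusted p = 0.00227). Cxcl16 rose (1.18, adjusted p = 0.011), and Il33, an alarmin, rose with overlapping groups (1.15, adjusted p = 0.0379). The Cxcl16 call ended without iTKO 2, and that of Il33 without iTKO 2 or 3 or control 2, 3, 4 or 5. MHC class II genes showed no call among 7 tested, and H2-Aa was at 154, 108 and 403 FPKM in iTKO and 669, 545, 306, 605 and 288 FPKM in control epithelium, with iTKO 1 and 2 below every control and iTKO 3 within their range.

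Junction genes rose in 10 of 16 cases and fell in 1, with a median of 0.34. Cldn2, a claudin that forms cation pores and is known from crypts, was at 200.2, 198 and 234 FPKM in iTKO epithelium, against 46.0, 62.4, 57.0, 70.5 and 56.0 FPKM in control epithelium. Its rise was 1.85 ± 0.12 (SE, adjusted p = 1.3e-05). Cldn4, another claudin, was the 1 fall, at 6.95, 5.16 and 2.59 FPKM in iTKO epithelium, against 70.9, 55.2, 61.2, 38.9 and 36.8 FPKM in control epithelium, a change of -3.34 ± 0.30 (SE, adjusted p = 8.8e-05). Dsg2, a desmosomal cadherin, was at 212, 194 and 192 FPKM in iTKO epithelium, against 105, 109, 144, 108 and 106 FPKM in control epithelium (0.81, adjusted p = 8.8e-04). Cldn23, another claudin, rose by 0.72 (adjusted p = 5.1e-04). Cdh17, an intestinal cadherin, rose by 0.32 (adjusted p = 0.0308), and this call ended without iTKO 1, iTKO 3 or control 2, 4 or 5.

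Water and ion transport genes fell in 5 of 16 cases and rose in 2. Aqp1, a water channel that capillary endothelium also makes, was at 27.7, 26.3 and 23.4 FPKM in iTKO epithelium, against 99.2, 133, 197, 126 and 139.8 FPKM in control epithelium (-2.37, adjusted p = 2.7e-05). Aqp7, an aquaglyceroporin, was at 4.36, 2.68 and 2.17 FPKM in iTKO epithelium, against 83.1, 23.3, 27.0, 20.7 and 20.6 FPKM in control epithelium (-3.12, adjusted p = 9.3e-04), with control 1 far above the other controls. Clca4a, of the calcium-activated chloride channel regulator family with several copies in mouse, was at 46.8, 25.1 and 17.2 FPKM in iTKO epithelium, against 135, 309.7, 278, 132 and 167 FPKM in control epithelium (-2.79, adjusted p = 9.6e-04). Cftr, the chloride channel of crypt cells, was at 80.7, 75.0 and 105 FPKM in iTKO epithelium, against 45.9, 50.0, 43.5, 44.9 and 51.5 FPKM in control epithelium, a rise of 0.86 ± 0.11 (SE, adjusted p = 6.7e-04). Slc9a3, the apical sodium/proton exchanger, was at 122, 134 and 218 FPKM in iTKO epithelium, against 119, 79.7, 54.0, 66.8 and 87.4 FPKM in control epithelium (0.96, adjusted p = 0.0216), a call that ended without iTKO 3 or against the SMAD1/5-line controls alone.

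Crypt genes gave a mixed picture. Of 15 crypt base stem cell genes 3 rose and 5 fell, with a median of -0.27. Ascl2, a transcription factor of stem cells, was at 0.579, 0.587 and 0.259 FPKM in iTKO epithelium, against 4.18, 4.04, 3.34, 4.50 and 3.34 FPKM in control epithelium, a change of -2.18 ± 0.18 (SE, adjusted p = 5.4e-05). Olfm4, a secreted stem cell marker, was at 271, 293 and 189.6 FPKM in iTKO epithelium, against 505, 382, 469, 470.2 and 325 FPKM in control epithelium (-0.78, adjusted p = 0.0104), a call lost without iTKO 3. Smoc2, a matrix protein of stem cells, was higher at 59.7, 71.5 and 50.5 FPKM in iTKO epithelium, against 30.4, 37.3, 36.9, 33.1 and 31.0 FPKM in control epithelium (0.83, adjusted p = 0.0029). Lgr5, the R-spondin receptor that marks crypt base stem cells, was at 8.42, 7.63 and 7.07 FPKM in iTKO epithelium, against 5.56, 6.72, 9.23, 6.31 and 6.43 FPKM in control epithelium, and the groups overlapped (0.17, adjusted p = 0.455). Lrig1, an inhibitor of growth factor receptors, rose slightly (0.47, adjusted p = 0.00423).

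Wnt target genes fell in 5 of 12 cases and rose in 1. Axin2, the feedback inhibitor used as a readout of Wnt signalling, was at 12.1, 16.7 and 14.7 FPKM in iTKO epithelium, against 28.5, 46.6, 43.5, 39.3 and 36.9 FPKM in control epithelium, a change of -1.39 ± 0.16 (SE, adjusted p = 2.9e-04). Tcf7 and Ephb3 fell (-1.002 and -0.95, adjusted p = 0.0151 and 0.00181), and Ephb2, the related receptor that keeps cells in the crypt, rose (0.70, adjusted p = 0.00571). T cells also make Tcf7, and T cell markers were lower in iTKO libraries as given below, and the part they play in its value was not tested. Its call ended without iTKO 3. Myc was at 13.2, 16.1 and 15.6 FPKM in iTKO and 13.7, 15.1, 14.9, 18.3 and 18.5 FPKM in control epithelium, within the same range. Of 25 cell cycle genes 1 fell and none rose, where 8.95% of all genes fell and 9.13% rose, with a median of -0.15 and values between -0.63 and 0.27. Mki67 was at 35.9, 36.4 and 35.9 FPKM in iTKO epithelium, against 37.7, 39.7, 44.5, 43.8 and 31.8 FPKM in control epithelium, and Ccne2, cyclin E2, was the 1 fall (-0.63, adjusted p = 0.0186), a call lost without iTKO 2 or 3. Among 10 Notch pathway genes the ligand Jag2 was the 1 call, where 8.95% of all genes fell, so falls were about as frequent as over all genes. Jag2 was at 0.558, 0.744 and 0.833 FPKM in iTKO epithelium, against 2.40, 2.90, 2.50, 2.02 and 2.67 FPKM in control epithelium (-1.31, adjusted p = 6.7e-04). Dll1 and Hes1, a ligand and a target of the pathway, overlapped between the groups.

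Of 9 genes of the fetal state and of repair 4 rose and none fell, with a median of 0.75. Ly6a, a surface protein of fetal and regenerating epithelium, was at 3.58, 3.54 and 7.93 FPKM in iTKO epithelium, against 0.692, 1.07, 0.858, 0.887 and 0.786 FPKM in control epithelium (1.94, adjusted p = 0.00358). Anxa10, an annexin of gastric epithelium, was at 1.50, 3.45 and 2.91 FPKM in iTKO epithelium, against 0.0429, 0, 0, 0.135 and 0 FPKM in control epithelium (2.49, adjusted p = 0.00694). Clu, which marks revival stem cells in mice, was at 4.42, 3.93 and 2.33 FPKM in iTKO epithelium, against 1.09, 1.03, 2.65, 1.49 and 1.46 FPKM in control epithelium and just missed the threshold (1.001, adjusted p = 0.0515). Krt7 rose (0.75, adjusted p = 0.00396). Of 4 gastric and duodenal gland genes 2 rose, namely Muc1, a membrane mucin, and Gkn3, a secreted gastrokine. Muc1 was at 2.55, 8.19 and 2.98 FPKM in iTKO epithelium, against 0, 0, 0, 0.118 and 0.0638 FPKM in control epithelium (3.08, adjusted p = 1.6e-04), listed at 0 in 3 of 5 controls. Gkn3 was at 3.85, 4.91 and 3.15 FPKM in iTKO epithelium, against 2.11, 0.980, 2.59, 1.55 and 1.44 FPKM in control epithelium (1.03, adjusted p = 0.0142), a call lost without iTKO 2. Muc6 stayed under 0.1 FPKM in every library.

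Paneth cell genes fell in 14 of 16 cases and none rose. The median was -1.62. Lyz1, the lysozyme of Paneth granules, was at 1587, 2501 and 1053 FPKM in iTKO epithelium, against 4323, 4573, 5579.6, 4628 and 4529.6 FPKM in control epithelium. Itln1, an intelectin, was at 816, 1228 and 619.5 FPKM in iTKO epithelium, against 2651, 2364, 3443, 2336 and 2634 FPKM in control epithelium. Mmp7, which cleaves pro-defensins in mouse, was at 63.1, 80.2 and 57.8 FPKM in iTKO epithelium, against 119, 129.5, 178, 119 and 130.3 FPKM in control epithelium. All 3 were below every control in each iTKO library, with changes of -1.55, -1.64 and -1.003 (adjusted p = 0.00137, 5.2e-04 and 0.00111), iTKO 2 was the highest iTKO library for each, and control 3 the highest control. Defensin genes such as Defa24, at 2442, 3518 and 1761 FPKM in iTKO epithelium, against 7267, 6284, 10131, 7138 and 7178 FPKM in control epithelium, have many near-identical copies, so reads may have been split between them. The summed level of the 16 genes was 5315 to 11017 FPKM in iTKO and 20545 to 30143 FPKM in control epithelium, and no gene of the list was at 0 in all libraries.

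Goblet cell genes fell in 9 of 15 cases and none rose, with a median of -0.64 and a summed level of 4968 to 6079 FPKM in iTKO and 8874 to 10895 FPKM in control epithelium. Tff3, a trefoil peptide, was at 1061, 1306 and 1066 FPKM in iTKO epithelium, against 2084, 2025, 1739, 1854 and 2230.3 FPKM in control epithelium, a change of -0.80 ± 0.13 (SE, adjusted p = 0.00235). Zg16, a lectin of the mucus layer, was at 1659, 1949 and 1486 FPKM in iTKO epithelium, against 2552, 3625, 3724, 3508 and 4592 FPKM in control epithelium, a change of -1.07 ± 0.18 (SE, adjusted p = 0.00313). Atoh1, the factor that sets the secretory fate, was at 5.52, 4.99 and 4.85 FPKM in iTKO epithelium, against 9.66, 7.23, 10.3, 7.84 and 8.81 FPKM in control epithelium (-0.71, adjusted p = 0.00443), and Spdef, the goblet cell factor downstream of it, changed by -0.60 (adjusted p = 0.0139), a call lost without iTKO 1 or 3. Agr2 and Spink4, also goblet cell genes, did not pass (-0.03 and -0.34). The mucin gene Muc2 was not analysed here.

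Enteroendocrine genes fell in 13 of 23 cases and none rose, with a median of -0.80. Nts, neurotensin, was at 1.35, 1.81 and 2.36 FPKM in iTKO epithelium, against 41.1, 27.5, 33.1, 21.9 and 33.5 FPKM in control epithelium. Sct, secretin, was at 5.44, 8.72 and 5.57 FPKM in iTKO epithelium, against 47.8, 42.9, 31.6, 30.6 and 36.6 FPKM in control epithelium. Tph1, which makes serotonin in enterochromaffin cells, was at 3.71, 5.42 and 4.53 FPKM in iTKO epithelium, against 17.7, 17.6, 9.95, 15.7 and 17.4 FPKM in control epithelium. The hormones changed by -3.76 and -2.45 and the enzyme by -1.66 on the log2 scale (adjusted p = 4.5e-05, 6.1e-05 and 4.4e-04). Chga, chromogranin A, a general marker, was at 38.0, 71.3 and 48.3 FPKM in iTKO epithelium, against 78.7, 83.2, 74.7, 91.1 and 97.3 FPKM in control epithelium (-0.73, adjusted p = 0.0163), with iTKO 2 near the controls, and its call ended without iTKO 1 or 3. Cck, Gip and Sst, hormones of I, K and D cells, changed by -1.01, -0.90 and -1.23 (adjusted p = 0.00949, 0.0049 and 0.00139). Pyy and Ghrl did not pass (-0.03 and -0.36). Tuft cell genes gave 1 rise and 2 falls among 14 tested, where 9.13% of all genes rose and 8.95% fell. The rise was Plcg2 and the falls Sh2d6 and Cd24a, and these calls held in 19, 17 and 10 of 23 alternative fits. The other 11 did not pass, and the median was -0.72. Dclk1 was at 2.81, 1.93 and 3.41 FPKM in iTKO epithelium, against 11.7, 3.19, 5.12, 4.53 and 5.76 FPKM in control epithelium, and the high level of control 1 recurred in Trpm5, Pou2f3 and Sh2d6, other tuft cell genes. Against the SMAD1/4/5-line controls alone, which leave out control 1, the tuft median was -0.61.

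**Figure D4:**
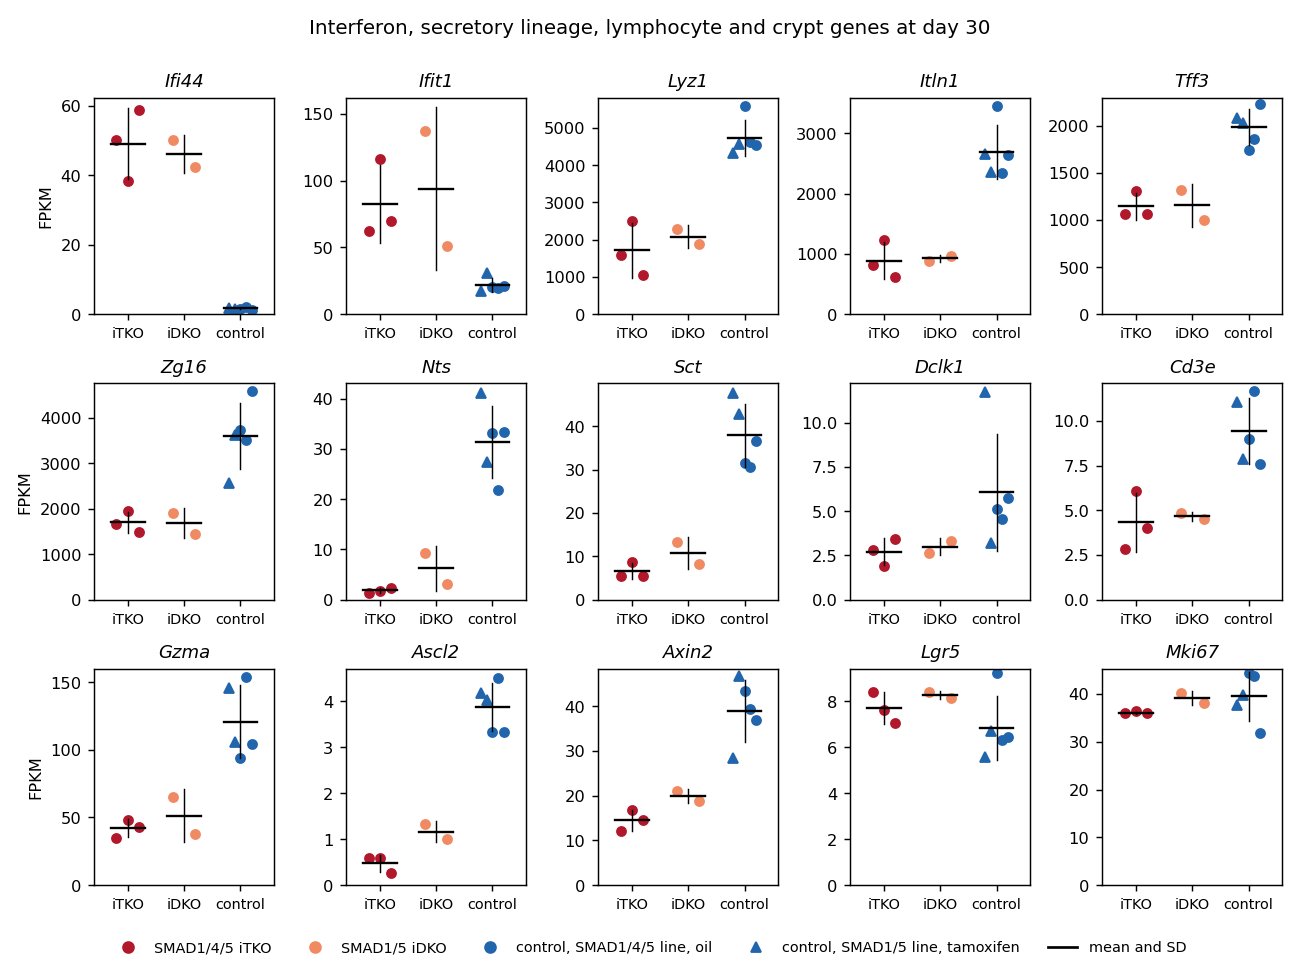
FPKM (linear axes from 0) of interferon, secretory lineage, lymphocyte and crypt genes in 3 iTKO, 2 iDKO and 5 control libraries, with bars at the mean and SD. Ifi44 and Ifit1 are above every control in each iTKO library, Lyz1, Itln1, Tff3, Nts, Cd3e, Gzma, Ascl2 and Axin2 are below, and Lgr5 and Mki67 overlap.

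Intraepithelial lymphocytes were part of the preparations. Of 18 tested T cell and intraepithelial lymphocyte markers 14 fell and none rose, with a median of -1.02. Cd3e, a chain of the T cell receptor complex, was at 2.85, 6.09 and 4.03 FPKM in iTKO epithelium, against 11.1, 7.87, 8.96, 11.7 and 7.56 FPKM in control epithelium. Gzma, granzyme A, was at 34.9, 48.3 and 43.1 FPKM in iTKO epithelium, against 146, 106, 93.8, 154 and 105 FPKM in control epithelium. They changed by -1.08 and -1.49 (adjusted p = 0.00606 and 0.00102). The markers summed to 101 to 156 FPKM in iTKO and 263 to 403 FPKM in control epithelium, no defining marker was at 0 in all libraries, and per-library medians were -1.44, -0.63 and -0.86 in iTKO 1, 2 and 3. Lower lymphocyte RNA thus went with every result above, and its part in them was not tested.

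Markers of other cell types were checked in both groups. Fibroblast, muscle and vessel markers summed to 7.75 to 12.7 FPKM in iTKO and 8.62 to 11.8 FPKM in control epithelium, myeloid markers to 15.8 to 22.6 and 11.1 to 18.5 FPKM, and red blood cell genes to 5.00 to 7.83 and 0.988 to 6.34 FPKM. Of 6 tested myeloid markers C1qa (1.12, adjusted p = 0.0296) and Cd14 (0.72, adjusted p = 0.0174) rose and Itgax (-0.71, adjusted p = 0.0203) fell, with C1qa at or under 1.21 FPKM in all 8 libraries. These calls ended without iTKO 3, with further libraries ending those of C1qa (iTKO 1, controls 2, 3 and 5), Cd14 (iTKO 2) and Itgax (iTKO 1). B cell and plasma cell markers, summed at 112 to 241 FPKM in iTKO and 85.9 to 166 FPKM in control epithelium, gave no call among 5 tested. Of 2 tested exocrine pancreas genes none passed. Immediate early and heat shock genes, which respond to tissue handling, fell in 4 of 12 cases. These were Jun (-1.04, adjusted p = 0.00223), Junb (-0.60, adjusted p = 9.7e-04), Dusp1 (-1.14, adjusted p = 0.0193) and Fosb (-1.01, adjusted p = 0.037), and their part in other results was not tested. The Dusp1 call ended without iTKO 3, and that of Fosb without any 1 iTKO library or control 3 or 4.

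The 10 largest rises outside the control range included Ifi44 and Ifit2. Cfhr2, a complement factor H-related protein, was at 10.3, 18.4 and 23.4 FPKM in iTKO epithelium, against 0.0782, 0, 0.0873, 0.164 and 0.400 FPKM in control epithelium (4.74, adjusted p = 4.5e-06). Trim46, known in neurons as a protein of the axon initial segment, was at 20.8, 17.1 and 21.9 FPKM in iTKO epithelium, against 0.477, 0.355, 0.0626, 0.294 and 0.573 FPKM in control epithelium (4.61, adjusted p = 6.2e-06). Fam20c, the kinase of secreted proteins, was at 16.3, 10.5 and 16.3 FPKM in iTKO epithelium, against 0.752, 0.533, 0.470, 0.442 and 0.888 FPKM in control epithelium (3.73, adjusted p = 1.3e-05). Control levels of these 3 genes were under 1 FPKM. Sult6b2, a sulfotransferase family member, was at 111, 121 and 131 FPKM in iTKO epithelium, against 7.99, 8.48, 6.92, 9.25 and 13.6 FPKM in control epithelium, a rise of 3.67 ± 0.18 (SE, adjusted p = 1.9e-06). Pde10a, a phosphodiesterase, was at 8.59, 6.78 and 6.21 FPKM in iTKO epithelium, against 0.0200, 0.203, 0.358, 0.147 and 0.114 FPKM in control epithelium (3.53, adjusted p = 6.7e-04). Gml and Gml2, a pair of related Ly6-family genes, rose by 3.25 and 3.09 (adjusted p = 7.6e-04 and 1.3e-04). LYPD8L, the row for a gene related to Lypd8, was at 4090.2, 3645 and 4498 FPKM in iTKO epithelium, against 281, 417, 336, 698 and 648 FPKM in control epithelium, a rise of 3.18 ± 0.31 (SE, adjusted p = 1.4e-04) from an already high level.

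The 10 largest falls outside the control range included Cyp2c29, Cyp2b10, Cyp3a11, Ada and Smad6. Slc5a4a, of the sodium/glucose cotransporter family and with a close paralog, was at 1.64, 0.723 and 0.916 FPKM in iTKO epithelium, against 62.4, 50.5, 82.1, 44.9 and 64.3 FPKM in control epithelium, a change of -5.28 ± 0.26 (SE, adjusted p = 2.3e-06). Cubn, cubilin, the receptor for intrinsic factor with vitamin B12, was at 2.86, 1.48 and 2.66 FPKM in iTKO epithelium, against 18.5, 73.3, 199, 42.8 and 107 FPKM in control epithelium (-4.59, adjusted p = 7.0e-04), and its controls spread over about 10 times. Defa2, a defensin, was at 1.32, 4.40 and 3.39 FPKM in iTKO epithelium, against 124, 36.7, 192, 24.0 and 92.4 FPKM in control epithelium (-4.48, adjusted p = 0.0029). Aqp3, a basolateral water and glycerol channel, was at 4.21, 1.37 and 0.869 FPKM in iTKO epithelium, against 67.1, 43.4, 55.0, 43.4 and 18.2 FPKM in control epithelium (-4.20, adjusted p = 3.7e-04). Susd2, a membrane protein of the sushi domain family, was at 9.44, 2.14 and 2.80 FPKM in iTKO epithelium, against 54.7, 55.7, 112, 49.7 and 61.3 FPKM in control epithelium (-3.86, adjusted p = 2.4e-04).

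The iTKO libraries were set against the 2 iDKO libraries, which lack SMAD1 and SMAD5 and keep SMAD4. In the same fit 26 genes were higher in iTKO (0.218%) and 65 lower (0.544%) of 11939, and at an unadjusted p under 0.05 these were 653 and 713. Line and SMAD4 loss go together here and cannot be told apart. These counts rest on 2 iDKO libraries, and moved to 1 and 20 without iDKO 1 and to 153 and 161 without iDKO 2. Smad4 itself was at 35.3, 32.1 and 46.7 FPKM in iTKO epithelium, against 135 and 137 FPKM in iDKO epithelium (-1.85, adjusted p = 4.5e-04).

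Of the 17 villus tip genes 4 were lower in iTKO than in iDKO epithelium and none higher. Ada was at 55.2, 30.1 and 39.6 FPKM in iTKO epithelium, against 508 and 502 FPKM in iDKO epithelium, a difference of -3.63 ± 0.26 (SE, adjusted p = 1.3e-04). Nt5e was at 2.53, 1.96 and 1.24 FPKM in iTKO epithelium, against 26.4 and 27.8 FPKM in iDKO epithelium, a difference of -3.55 ± 0.41 (SE, adjusted p = 0.00374). Slc28a2 was at 37.2, 20.1 and 21.9 FPKM in iTKO epithelium, against 144 and 99.8 FPKM in iDKO epithelium, a difference of -2.22 ± 0.37 (SE, adjusted p = 0.0252), and Alpi differed by -0.97 (adjusted p = 0.0189). The iDKO values of Ada, Nt5e and Slc28a2 thus stood near or within the control ranges given above, while no iTKO value did. Cldn4 was at 6.95, 5.16 and 2.59 FPKM in iTKO epithelium, against 81.6 and 52.5 FPKM in iDKO epithelium, a difference of -3.70 ± 0.37 (SE, adjusted p = 0.00159). Enpp3, at 189, 69.2 and 93.5 FPKM in iTKO and 289.8 and 388 FPKM in iDKO epithelium, did not pass (-1.64, adjusted p = 0.1). The calls of Slc28a2 and Alpi ended without iDKO 1, iTKO 2 or iTKO 3.

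The BMP response list gave 1 lower gene among 6, Smad6, at 0.804, 1.32 and 0.360 FPKM in iTKO epithelium, against 5.48 and 3.90 FPKM in iDKO epithelium (-2.02, adjusted p = 0.0224). Id2 was at 1.55, 2.26 and 1.88 FPKM in iTKO epithelium, against 4.11 and 3.36 FPKM in iDKO epithelium, without overlap, and did not pass (-0.82, adjusted p = 0.0674). Id1 was at 5.02, 6.79 and 7.61 FPKM in iTKO epithelium, against 21.4 and 7.70 FPKM in iDKO epithelium, a narrow gap that did not pass (-0.96, adjusted p = 0.246). Id3 was at 5.50, 10.5 and 17.1 FPKM in iTKO epithelium, against 25.0 and 12.3 FPKM in iDKO epithelium, and the groups overlapped. Pmepa1 was at 14.3, 17.8 and 16.1 FPKM in iTKO epithelium, against 88.5 and 68.2 FPKM in iDKO epithelium, a difference of -2.24 ± 0.15 (SE, adjusted p = 1.3e-04) that held in all 21 alternative fits of this comparison. Of 9 fetal-state and repair genes 3 were lower in iTKO, namely Anxa10 (-3.29, adjusted p = 0.0437), Clu (-2.53, adjusted p = 0.0184) and Krt7 (-1.14, adjusted p = 0.0154). Anxa10 was at 1.50, 3.45 and 2.91 FPKM in iTKO epithelium, against 78.7 and 10.4 FPKM in iDKO epithelium, so that iTKO stood between iDKO and control epithelium, and its call held in 5 of 20 fits. Smad6, Clu and Krt7 lost their calls without iDKO 1 or iTKO 3, Smad6 also without iTKO 1, and Clu also without iTKO 2. Ctrb1, a pancreatic protease, was at 0.479, 0.147 and 0.143 FPKM in iTKO epithelium, against 64.5 and 22.4 FPKM in iDKO epithelium, a difference of -5.70 ± 0.41 (SE, adjusted p = 1.3e-04) in which the control libraries, at 0.206, 0, 0, 0.144 and 0.234 FPKM, were close to iTKO.

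Given next are the 5 largest rises of iTKO over iDKO among genes past the threshold and without overlap. Ccl20 (3.27, adjusted p = 0.0731) and Bmp3 (1.48, adjusted p = 0.0674) also had every iTKO library above both iDKO libraries but did not pass. Slc2a7, a sugar transporter, was at 47.0, 37.6 and 51.7 FPKM in iTKO epithelium, against 16.4 and 21.2 FPKM in iDKO epithelium (1.25, adjusted p = 0.0224). Slc5a11, an inositol transporter, was at 97.0, 76.3 and 80.0 FPKM in iTKO epithelium, against 22.9 and 46.8 FPKM in iDKO epithelium (1.34, adjusted p = 0.0444), and Unc93a2 at 29.5, 21.2 and 36.1 FPKM in iTKO epithelium, against 7.36 and 12.1 FPKM in iDKO epithelium (1.53, adjusted p = 0.0252). Hsd17b6, a steroid dehydrogenase, differed by 1.26 (adjusted p = 0.00726). Tgfbi, a TGF-beta-induced matrix protein, was at 126, 134 and 132 FPKM in iTKO epithelium, against 42.9 and 71.7 FPKM in iDKO epithelium, a difference of 1.23 ± 0.20 (SE, adjusted p = 0.0221). Tgfbi is also next to the floxed gene Smad5 in the RefSeq gene order, and the part of this place was not tested. Each of these 5 calls ended without iDKO 1, and all but that of Hsd17b6 also without iTKO 1 or 3. Of 21 alternative fits of this comparison, Hsd17b6 passed in 19, Slc2a7 and Unc93a2 in 16, Tgfbi in 15 and Slc5a11 in 8. Slc2a7, Slc5a11 and Unc93a2 were lower in iTKO than in control epithelium, so iTKO stood between iDKO and control epithelium for them. Their log2 changes against control were -1.42 to -1.06, -1.09 to -0.81 and -1.57 to -1.19 over 23 alternative fits, of which Slc5a11 passed in 21. Tgfbi did not pass against control (-0.30, adjusted p = 0.236). At the threshold, no member of the xenobiotic, amino acid transport, Paneth, goblet, enteroendocrine, T cell or interferon lists differed between iTKO and iDKO epithelium. A p that misses the threshold does not show that they are alike, and the medians were 0.07, 0.55, -0.14, 0.02, 0.01, -0.18 and 0.14 in that order.

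The 3 oil controls of the SMAD1/4/5 line and the 2 tamoxifen controls of the SMAD1/5 line differed in 0 genes upward and 2 downward (0.0168%) by limma, with 300 and 329 at an unadjusted p under 0.05. These 2, named after their values were seen, were Gm8730 and Gm9625. Gm8730 was at 0.917, 2.85 and 1.94 FPKM in the SMAD1/4/5-line controls, against 404 and 371 FPKM in the SMAD1/5-line controls. The iTKO libraries had 1.03, 1.90 and 1.84 FPKM and the iDKO libraries 434 and 205 FPKM. Gm9625 was at 0.0734, 0.203 and 0.0657 FPKM in iTKO and 60.0 and 26.0 FPKM in iDKO epithelium, and its controls split by line in the same way. The line labels thus matched these transcripts in all 10 libraries. Of the genes above, C1qa, Cd14, Creb3l3, Elf3, Fosb, Gkn3, Il18, Il33, Reg3b, Slc11a2, Slc5a1 and Vil1 lost their call in iTKO epithelium against the SMAD1/4/5-line controls alone. Against the SMAD1/5-line controls alone the calls of Acvr1c, Bambi, Bmpr1a, C1qa, Ccne2, Cd14, Cdh17, Cdkn2b, Chga, Creb3l3, Cxcl16, Cyp51, Dhrs3, Il18, Il33, Itgax, Lct, Nlrp6, Pmvk, Rdh7, Slc11a2, Slc20a1, Slc25a20, Slc39a4, Slc51a, Slc9a3, Spdef, Stat2, Tcf7, Tm7sf2 and Vil1 were lost. Cd24a and Sh2d6 also lost their call against each control set alone, and Plcg2 and Slc5a11 against the SMAD1/5-line controls alone. These lists cover genes named by the rule, and none of them changed sign.

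**Figure D5:**
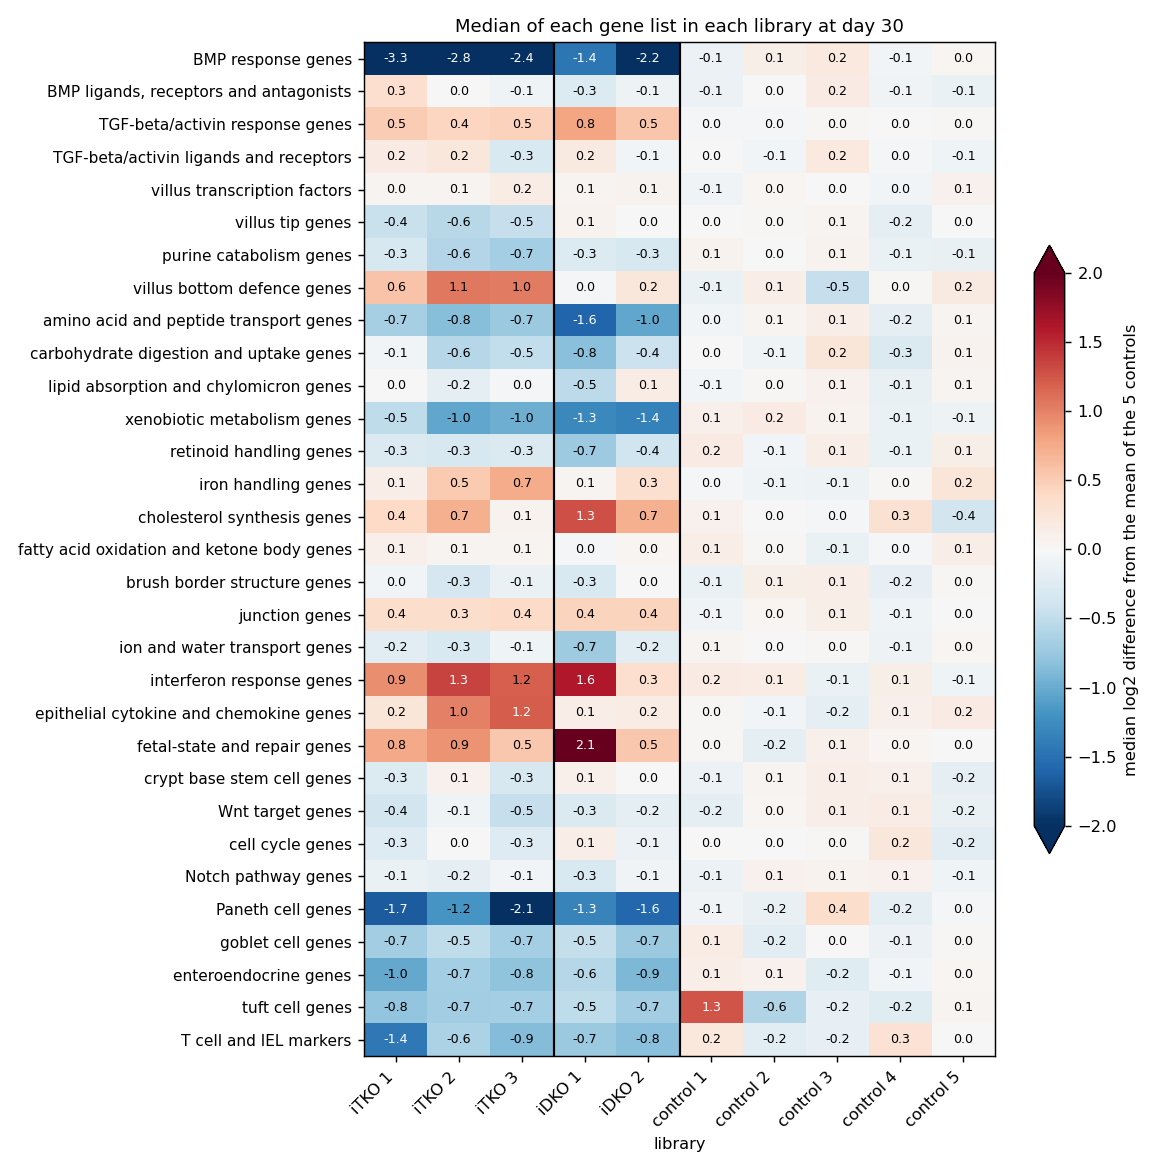
Median log2 difference of each gene list from the mean of the 5 controls, in each of 10 libraries (columns), with blue below and red above the control mean. The 3 iTKO columns read -3.27, -2.82 and -2.43 for BMP response genes, and the tuft cell row has 1.26 in control 1.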

How the data were processed

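RNA of 3 iTKO, 2 iDKO and 5 control preparations of mouse proximal intestinal epithelium was sequenced as paired ends, per the labels' protocols. Alignment and counting used HISAT2 2.2.1 and featureCounts 2.0.1, per the submitters' processing notes, which name GRCm39 and mm10 without saying which was used, so no coordinates come from the files. The FPKM values were computed and deposited by the authors, and no strand setting is given, so overlapping antisense genes cannot be told apart. The other 3 tables were not used here.

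Of 15653 genes, 15646 matched a mouse symbol and 11939 had an FPKM of at least 1 in 2 or more libraries. A linear model of log2(FPKM + 0.5) with a mean-variance trend was fitted to the 10 libraries with limma 3.58.1 in R 4.3.3. P-values were Benjamini-Hochberg adjusted across the whole table, with a threshold of 0.05. A fit with the controls split by line gave the values for each control set. The fit was tested on simulated data for iTKO against control over 11939 genes. It recovered 76% of 100 genes changed by 1 on the log2 scale and 91% of 100 changed by 2, with 8 false calls.

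Depth was estimated from the spacing of low FPKM values (45.0% to 48.7% of low genes within 0.05 of a whole fragment), so no counting intervals are given. Gene lists are described by counts and medians, without a set test. The members, the 44 lists and the rule for naming genes were chosen with earlier results of these data known. The rule took Smad1, Smad4 and Smad5, the 10 largest rises and falls against control and 5 against iDKO without overlap and with a mean FPKM of at least 5, marked members of each list, and up to 4 further members of smallest adjusted p. A further 16 list members, and genes outside the lists where so stated, were picked with their values in view. Most other list members enter only the counts and medians. Promoters are from the RefSeq table of build GRCm38.p6, where 7 motifs were searched. Alternatives were other pseudocounts, filters and scalings, limma without a trend or with a robust prior, a replicate block, sex as a covariate, fits of the 2 groups alone, each control set alone, and each library left out. Figures used Python 3.11.15, pandas 2.3.3, numpy 2.4.6 and matplotlib 3.10.9.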

Additional observations from a re-analysis of the deposited data

Results flagged for a closer look

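Among 212 named genes with 5 controls to compare, 19 (8.96%) had 1 control far from the other 4 by Dixon's test. The rate of about 1 in 20 for that test holds for independent normal values from 1 population. These were FPKM of related genes over controls of both lines, and 18 of the 19 flags were high. The share was therefore not set against chance. Control 1 was high for Trpm5 (23.8 FPKM), Pou2f3 (2.72), Sh2d6 (23.9), Ada (952.4), Aqp7 (83.1), Car4 (697), Fer1l6 (26.2) and Gip (253). Control 3 was high for Defa24 (10131), Itln1 (3443), Lyz1 (5579.6), Mmp7 (178), Acvr1c (5.73), Clu (2.65), Dsg2 (144) and Susd2 (112), and low for Tph1 (9.95). Control 2 was high for Saa1 (3.59) and control 5 for Tgif1 (19.0). Each value is an FPKM of a single library, and no explanation was tested. The high controls raise the control mean of Ada, Susd2 and the Paneth cell genes, whose other 4 controls were also above every iTKO library.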

How the results depend on the processing

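Of 176 named genes called against control besides Smad4, 108 kept their call in all 23 alternative fits, and no named call changed direction. Of 17 called against iDKO 4 kept theirs. Genes picked outside the rule, such as Krt20, Bmp7, Isx, Slc38a2 and Plin3, were not followed singly through these fits. With the 5 controls as 1 group, the share of rises among calls stayed within 10 points of the main value under each scaling. With a replicate block, which treats equal numbers as pairs, 408 genes were higher and 490 lower than control, 1 higher and 7 lower than iDKO, and 0 lower between the control lines. Residuals of same-numbered iTKO and control libraries correlated at -0.106, -0.151 and -0.150, so equal numbers were not taken as pairs. Residuals of iTKO 1, 2 and 3 correlated most with those of controls 3, 4 and 5, in that order and of the same line and sex (0.266, 0.274 and 0.133). No label pairs these libraries, and a fit with such pairs was not run. The SMAD1/5-line controls alone gave 583 higher and 599 lower. Against iDKO, sex as a covariate gave 57 higher and 107 lower, the 2 groups alone 5 and 18, and no trend 13 higher. Leaving out 1 library at a time gave 593 to 1141 genes higher and 653 to 1100 lower than control (the lowest without iTKO 3), 1 to 153 higher and 20 to 161 lower than iDKO (without iDKO 1 and iDKO 2), 0 to 3 higher and 2 to 36 lower between the control lines (36 without control 2), and -2.10 to -1.84 for Smad4. The cause was not tested. Depths of 13.1 to 16.5 megafragments limit genes under about 1 FPKM.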

Other observations

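The genes here were chosen after their values were seen. Rps18, a ribosomal protein gene, was at 20.6, 24.3 and 223 FPKM in iTKO epithelium, against 467, 411, 245, 548 and 229 FPKM in control epithelium, and iTKO 1 and iTKO 2 were about 10 times below iTKO 3 (-2.87, adjusted p = 0.0147). Btnl6, a butyrophilin-like gene of the gut epithelium, was at 19.0, 12.8 and 131 FPKM in iTKO epithelium, against 283, 319.96, 159, 236 and 159.7 FPKM in control epithelium with the same split (-2.78, adjusted p = 0.01). Its relatives Btnl1, which helps to maintain gut gamma delta T cells in mice, and Btnl4 did not pass the threshold (-0.31, adjusted p = 0.0779 and 0.23, adjusted p = 0.526).

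Rplp0, a ribosomal protein gene, was at 828, 1034 and 820.2 FPKM in iTKO epithelium, against 325, 321, 879, 1009.8 and 830.5 FPKM in control epithelium, low in controls 1 and 2 of the SMAD1/5 line and at 410.2 and 656 FPKM in iDKO epithelium, the libraries in which Gm8730 was high. The relation of the 2 transcripts was not tested.

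In the RefSeq gene order Mex3c is next to Smad4 on one side, and Elac1 and then Me2 on the other. Mex3c, an RNA-binding ubiquitin ligase, was at 39.9, 45.1 and 47.1 FPKM in iTKO epithelium, against 21.5, 21.4, 19.0, 21.9 and 22.9 FPKM in control epithelium, a rise of 1.03 ± 0.084 (SE, adjusted p = 5.3e-05), and at 45.2 and 46.6 FPKM in iDKO epithelium, which keeps SMAD4. Me2, a mitochondrial malic enzyme, was at 129, 124 and 128 FPKM in iTKO epithelium, against 192, 280.4, 291, 257 and 240.1 FPKM in control epithelium, a fall of -0.97 ± 0.14 (SE, adjusted p = 0.00104). In iDKO epithelium Me2 was at 79.6 and 106.1 FPKM, also below every control. The difference of iTKO from iDKO did not pass (0.47, adjusted p = 0.31 by limma).

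Lama3, a laminin chain, was lower in iTKO than in iDKO epithelium, at 3.76, 1.87 and 1.63 FPKM in iTKO epithelium, against 29.4 and 15.6 FPKM in iDKO epithelium (-2.98, adjusted p = 0.0224). Itgb6, an integrin subunit that activates TGF-beta, was at 8.62, 8.34 and 7.53 FPKM in iTKO epithelium, against 19.4 and 19.2 FPKM in iDKO epithelium (-1.19, adjusted p = 0.00726). The transcription factor Runx1 was at 2.06, 2.38 and 4.04 FPKM in iTKO epithelium, against 11.6 and 8.38 FPKM in iDKO epithelium (-1.68, adjusted p = 0.0238). Control levels were 4.34, 7.61, 9.88, 2.47 and 5.83 FPKM for Lama3 and 10.3, 12.2, 11.4, 8.52 and 8.67 FPKM for Itgb6, so iTKO values were within or below the control range while iDKO values were above it.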
